A study of Mus musculus with 14 samples.

Results

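The genes of the major histocompatibility complex (MHC) and of antigen presentation were followed in mouse liver, namely every gene whose symbol starts with H2- together with B2m, Tap1, Tap2, Tapbp, Cd74 and Ciita. They were 38 of the 17552 genes measured, and comprised 22 class I heavy chain genes, 4 class I partners, 9 class II chain genes, 2 class II partners and H2-Ke6. H2-Ke6 carries the prefix for its place in the MHC and encodes a steroid dehydrogenase. The livers came from male C57BL/6 mice, all deficient in Apoe, which lack apolipoprotein E and develop high blood cholesterol. The labels give their age as 8 weeks. The control group received a Western diet for 8 weeks according to the labels, and the erythrodiol group received the same diet with 10 mg/kg of erythrodiol, a triterpene alcohol of the olive. Each group had 7 polyA RNA libraries, each made from RNA pooled from a few animals, so that animals were not measured singly. The methods of the study give a longer diet than the labels do, with livers taken at its end. The labelled 8 weeks thus need not be the age at collection. The control libraries ranged from 34856340 to 55244294 clean reads and the erythrodiol libraries from 47669656 to 48058606. For genes, 1 expected count per group was available, the authors' sum over the 7 libraries, so no spread between libraries and no test can be given. Intervals printed here are exact 95% binomial intervals for counting error only. They may be too narrow even for that, since reads without molecular identifiers are not independent molecules. Apoe itself was still counted at 9403 and 8293 in control and erythrodiol, respectively, in mice that all share the deficiency.

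Class I molecules show peptides from inside the cell to CD8 T cells and to NK cells, and nearly every nucleated cell makes them, hepatocytes included. Each is a heavy chain bound to beta 2 microglobulin (B2m), loaded with peptides that the TAP transporter, built from Tap1 and Tap2, brings into the endoplasmic reticulum and that tapasin (Tapbp) helps to fit. Class II molecules are pairs of an alpha and a beta chain that show peptides from endosomes to CD4 T cells, and in liver they are made mainly by dendritic cells, B cells and macrophages under the control of Ciita, with Cd74 as their invariant chain. C57BL/6 mice carry the H2b haplotype, in which the H2-Ea gene is not transcribed, and H2-Ea was not analysed here.

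The class I heavy chains are near copies of each other, which matters for how their reads were counted. The start of the exon that encodes the alpha 3 domain is shown for members that differ by few or many bases. The exon has the same length in each of them. The first 60 bases are printed from the GENCODE M21 annotation of GRCm38, 5′ to 3′ on the coding strand, with capitals where a base differs from H2-K1. H2-K1 lies at chr17:33997501-33997560 on the minus strand, H2-D1 at chr17:35265784-35265843, H2-Q10 at chr17:35473083-35473142, H2-Q6 at chr17:35427864-35427923 and H2-Q7 at chr17:35442267-35442326, all on the plus strand, H2-T23 at chr17:36031038-36031097 on the minus strand and H2-M3 at chr17:37272269-37272328 on the plus strand.
H2-K1: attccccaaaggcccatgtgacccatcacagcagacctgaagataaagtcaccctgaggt
H2-D1: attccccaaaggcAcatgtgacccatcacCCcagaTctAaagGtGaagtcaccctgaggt
H2-Q10: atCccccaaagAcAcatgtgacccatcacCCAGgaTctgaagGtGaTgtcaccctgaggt
H2-Q6: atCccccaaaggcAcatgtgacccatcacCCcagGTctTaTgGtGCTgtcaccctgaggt
H2-Q7: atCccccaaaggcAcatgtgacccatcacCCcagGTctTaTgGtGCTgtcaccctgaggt
H2-T23: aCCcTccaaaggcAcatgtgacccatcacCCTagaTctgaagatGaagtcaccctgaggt
H2-M3: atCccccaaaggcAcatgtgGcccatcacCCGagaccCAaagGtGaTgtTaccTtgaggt
Over the whole exon, identity to H2-K1 was 96.0% for H2-D1, 95.3% for H2-T23, 93.8% for H2-Q10, 93.5% for H2-Q7 and 84.8% for H2-M3. H2-Q6 and H2-Q7 were identical in these 60 bases and differed at 2 bases of the whole exon.

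Promoters are shown for members whose levels the results turn on. The 250 bases before each start were searched on both strands for GGGGATTCCCC, a kappa B site, for TGACG, the core of sites that CREB family factors bind, for ATTGG, the reversed CCAAT box that NF-Y binds, and for GAAANNGAAA, the core of interferon response elements. The sequences are from RefSeq on GRCm38.p6, where 27 members had an entry, 15 of class I and 8 of class II. H2-Ab1 and Tap2 are among those with no entry. Each stretch is written 5′ to 3′ in the direction of transcription, with matches in capitals, and H2-K1 is at chr17:34000349-34000468 (minus strand), H2-Q10 at chr17:35469907-35470046 (plus), B2m at chr2:122147542-122147651 (plus), H2-Aa at chr17:34287854-34287928 (minus) and H2-Eb1 at chr17:34305762-34305836 (plus).
H2-K1: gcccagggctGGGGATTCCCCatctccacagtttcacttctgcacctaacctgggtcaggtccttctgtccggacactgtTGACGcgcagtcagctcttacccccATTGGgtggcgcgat
H2-Q10: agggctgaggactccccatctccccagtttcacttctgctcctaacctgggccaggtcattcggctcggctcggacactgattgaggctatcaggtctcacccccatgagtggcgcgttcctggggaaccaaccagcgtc
B2m: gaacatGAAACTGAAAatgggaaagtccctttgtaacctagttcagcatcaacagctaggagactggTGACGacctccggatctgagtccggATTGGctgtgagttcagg
H2-Aa: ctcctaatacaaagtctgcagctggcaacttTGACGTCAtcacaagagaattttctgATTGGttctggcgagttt
H2-Eb1: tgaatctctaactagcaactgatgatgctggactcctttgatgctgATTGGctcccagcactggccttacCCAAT
The kappa B letters stood in 10 of the 32851 RefSeq promoters (0.0304%), and the members that held them were H2-K1, H2-D1 and H2-Q6. ATTGG stood in 33.8% of all promoters, in 12 of 15 class I promoters and in 8 of 8 class II promoters. TGACG stood in 17.8% of all promoters, in 7 of 15 class I promoters and, among class II, in H2-Aa alone, where it matched on both strands in overlapping letters. GAAANNGAAA stood in 2.98% of all promoters and in 3 members, B2m, H2-T23 and H2-T22. The H2-Q10 promoter held none of the 4 sets of letters. Shares of all promoters count every entry, while a member with multiple entries, such as H2-K1, was counted once if any of them matched. The member counts and those shares are thus not on the same footing. These matches describe the sequence only.

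In the liver sums the antigen presentation genes had log2 ratios near 0, mostly below the median gene. Of the 38 members, 33 had at least 100 counts in the groups together, and none of them was at least 1.5-fold higher or at least 1.5-fold lower with erythrodiol. Among all 13291 genes with that many counts, 2.55% were higher and 3.14% lower by that much, so that a count of 0 among 33 genes is near the background. The log2 ratios of erythrodiol to control, after scaling each group by its total count, ran from -0.52 for H2-Aa to 0.25 for H2-DMb2, with a median of 0.00. The median of all genes was higher, at 0.16, and 28.8% of all genes lay below 0 against 16 of the 33 members. Against that shift 29 of the 33 members lay below the median gene, and 1 of them, H2-Aa, was then at least 1.5-fold lower (log2 -0.68), beside 6.16% of all genes. In bulk liver RNA fewer cells of a type and less RNA per cell cannot be told apart.

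**Figure D1:**
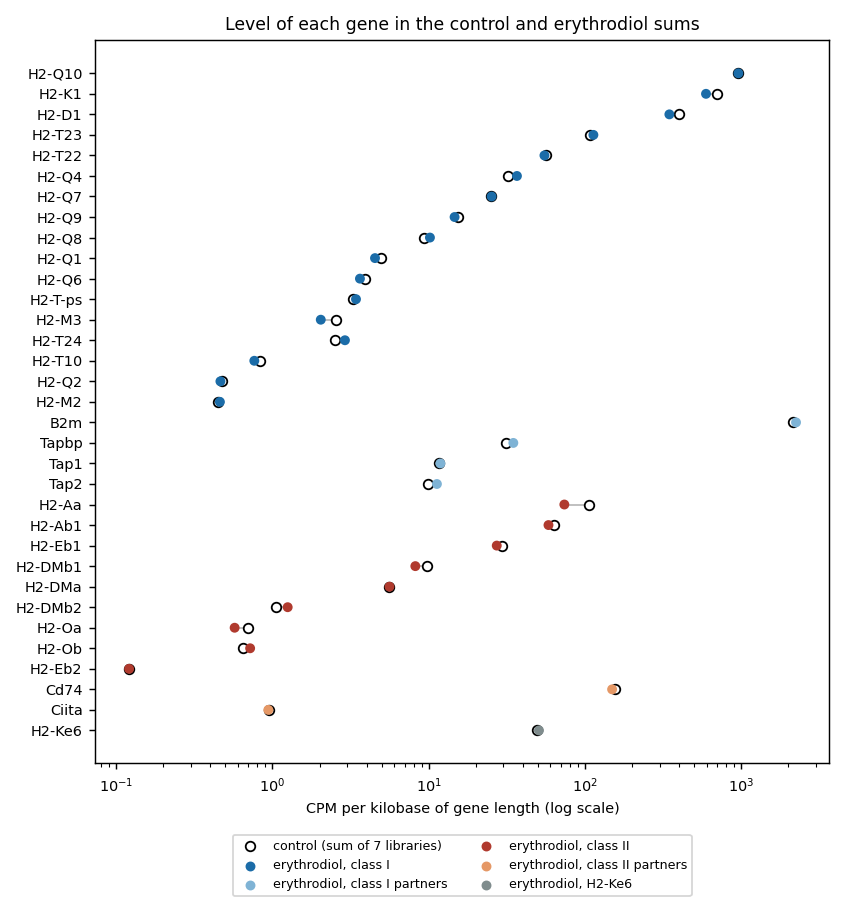
Level of each of the 33 genes with at least 100 counts, in CPM per kilobase of gene length (CPM, counts scaled to a total of 1000000) on a log scale, for the control sum (open circles) and the erythrodiol sum (filled circles, coloured by class); each circle is 1 sum over 7 libraries and has no error bar. The pairs of circles nearly coincide for most genes, and the widest gap among the abundant genes is that of H2-Aa, 106 in control and 73.7 in erythrodiol.

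The 22 class I heavy chains together made up 3644 CPM, counts scaled to a total of 1000000 per group, in control and 3406 in erythrodiol. Their summed counts were 447819 and 424638, a log2 ratio of -0.10 (interval -0.10 to -0.09). Most of this RNA was from 3 genes. H2-Q10, which encodes a secreted class I molecule made by the liver, held 38.4% of class I counts in control and 41.4% in erythrodiol. The classical transplantation antigens H2-K1 and H2-D1, the main presenters of peptide to CD8 T cells in this strain, held 32.0% and 18.9% in control against 29.2% and 17.6% in erythrodiol.

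The classical chains and the secreted chain had different ratios. H2-K1 had 143215 counts in control and 123841 in erythrodiol, a log2 ratio of -0.23 (interval -0.24 to -0.22). H2-D1 had 84751 and 74910.0, a log2 ratio of -0.20 (interval -0.21 to -0.18). Both classical genes were thus lower in the erythrodiol sum by near the same amount, and their sum gave -0.22. H2-Q10 had 171833 and 175631, a log2 ratio of 0.01 (interval 0.00 to 0.02). Per kilobase of length, H2-Q10 stood at 1.36 times the level of H2-K1 in control and at 1.61 times in erythrodiol. The members with the kappa B letters, H2-K1, H2-D1 and H2-Q6, had log2 ratios of -0.23, -0.20 and -0.10. H2-Q6 had few counts (469 and 444, interval -0.29 to 0.09). H2-M3 and H2-Q4, whose promoters lacked these letters, lay at -0.32 and 0.18. Whether the letters bear on the ratios was not tested. Relative to the median gene H2-K1, H2-D1 and H2-Q10 lay at -0.39, -0.36 and -0.15. Against genes of like length they lay at -0.30, -0.27 and -0.03.

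The other genes of the Q region held 16942 and 18042 counts in control and erythrodiol, a log2 ratio of 0.07 (interval 0.04 to 0.10) that became -0.09 relative to the median gene. H2-Q4 was the most abundant of them and had 7119 and 8192 counts, a log2 ratio of 0.18 (interval 0.14 to 0.23), close to the median of all genes. H2-Q7 and H2-Q9, which encode the Qa-2 antigen, had 4025 and 4134 counts (0.02) and 2903 and 2806 counts (-0.07). H2-Q6, H2-Q7, H2-Q8 and H2-Q9 together gave 8549 and 8664 counts, a log2 ratio of 0.00 (interval -0.04 to 0.04). H2-Q8 had 1151 and 1279.8 counts (0.13), H2-Q1 had 1163 and 1078 (-0.13) and H2-Q2 had 110.0 and 108.5 (-0.04). The counts of H2-Q8 and H2-Q9, of opposite sign, were not whole, and with which genes they share reads was not analysed here.

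In the T region, H2-T23 encodes Qa-1, which shows leader peptides of other class I molecules to NK cell receptors. It had 17341 and 18571 counts, a log2 ratio of 0.08 (interval 0.05 to 0.11), and -0.08 relative to the median gene. Relative to genes of like length H2-T23 lay at 0.09. H2-T22 encodes a ligand of some gamma delta T cells, while its near copy H2-T10 is listed as a transcribed pseudogene in RefSeq, and they had 11864 and 11744 counts (-0.04) and 291 and 273 counts (-0.11), respectively. Summed, this pair gave -0.04 (interval -0.074 to -0.00092). H2-T24 had 602 and 705 counts, a log2 ratio of 0.21 (interval 0.05 to 0.37), the highest of the class I members with at least 100 counts. H2-T-ps, a pseudogene by its symbol but protein coding in the RefSeq table, had 420.0 and 445 counts (0.06). All 7 T genes together lay at 0.04 (interval 0.01 to 0.06), which became -0.13 relative to the median gene.

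The M region was the part of class I with least RNA, 4.26 CPM in control and 3.56 in erythrodiol. H2-M3, which presents peptides that start with N-formylmethionine, had 446 and 362 counts, a log2 ratio of -0.32 (interval -0.53 to -0.12), the lowest of the class I members with at least 100 counts. H2-M2 had 77 and 80 counts (0.03). The 5 members below the minimum were all of class I. H2-Bl had 34.0 and 32.9 counts, H2-M5 had 1 in each group, H2-T3 had 1 and 0, H2-M10 had 0 and 1, and H2-T18 had 0 in both. RefSeq gives the gene identifier of that H2-M10 entry the symbol H2-M10.6. A count of 0 here says only that the gene was not detected at this depth.

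The partners of class I were as high or slightly higher in the erythrodiol sum. B2m, the shared light chain, was the most abundant member per length, at 2146 CPM per kilobase in control and 2236 in erythrodiol. Its counts were 226248 and 239200, a log2 ratio of 0.06 (interval 0.05 to 0.07), which was -0.10 relative to the median gene. B2m is short, at 858 bases, and relative to genes of like length it lay at 0.36. Tapbp had 10604 and 11905 counts (0.15, interval 0.11 to 0.18), Tap1 had 4183 and 4361 (0.04, interval -0.02 to 0.10) and Tap2 had 3026 and 3500 (0.19, interval 0.12 to 0.26). Of these only Tap2 lay above the median gene, by 0.03. Relative to genes of like length Tapbp, Tap1 and Tap2 lay at -0.01, -0.13 and 0.04. The level of B2m per length against the sum of all class I heavy chains per length was 0.930 in control and 1.03 in erythrodiol.

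Beside the members, 10 further genes of class I peptide supply and loading were listed, and all had at least 100 counts. None was at least 1.5-fold higher or lower, 6 lay above 0 and 4 below, and their median log2 ratio was 0.03. Relative to the median gene 1 was at least 1.5-fold lower, Psmb9 at -0.61, beside 6.16% of all genes. Psmb9 is short, at 873 bases. Neither these genes nor those of the lists below were set against genes of like length. The 4 below 0 were the immunoproteasome subunits Psmb9 (1970 and 1462 counts, -0.45), Psmb10 (-0.21) and Psmb8 (-0.18), and the proteasome activator subunit Psme2 (-0.13). The folding helpers of the endoplasmic reticulum lay on the other side. Calr, the chaperone calreticulin, had 74138 and 97820 counts (0.38), and the thiol oxidoreductase Pdia3 had 51602 and 61063 (0.22). These chaperones fold many other proteins too.

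**Figure D2:**
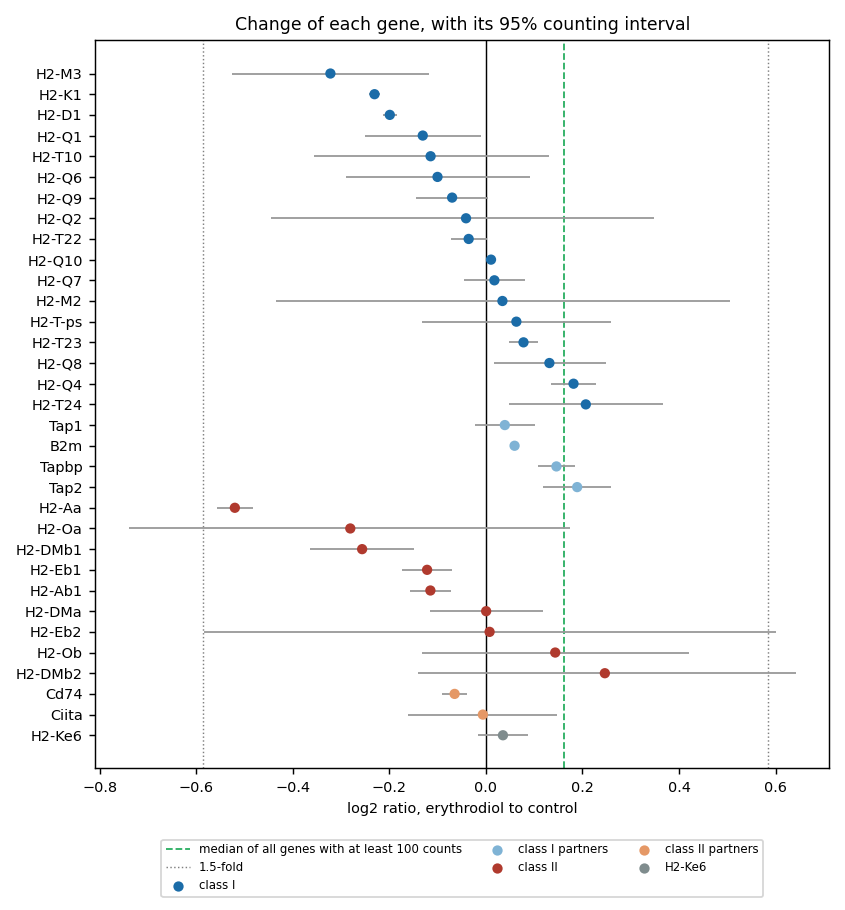
The log2 ratio of erythrodiol to control for each of the 33 genes with at least 100 counts, grouped by class and sorted within it; bars are exact 95% binomial intervals for counting error, the dashed line is the median of all genes (0.16) and the dotted lines mark 1.5-fold. H2-Aa at -0.52 stands apart from the other class II chains, and H2-K1 and H2-D1 lie together near -0.2. The bars of many rare genes cross 0, though those of H2-M3 and H2-T24 do not.

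The 9 class II chain genes summed to 265 CPM in control and 219 in erythrodiol. Their counts were 32580.3 and 27289, a log2 ratio of -0.28 (interval -0.30 to -0.25), and -0.44 relative to the median gene. Most of that difference was from H2-Aa, the alpha chain of the I-A molecule, which had 14071 counts in control and 9957 in erythrodiol. Its log2 ratio was -0.52 (interval -0.56 to -0.48), a change of -30.3%, and 4.26% of all genes with at least 100 counts had a lower ratio. Without H2-Aa the class II chains lay at -0.12 (interval -0.15 to -0.09).

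The chains that pair with each other did not share this size. H2-Ab1, the beta chain that H2-Aa binds, had 9259 and 8675 counts, a log2 ratio of -0.11 (interval -0.16 to -0.07). H2-Eb1, the beta chain of the I-E molecule, whose alpha chain this strain lacks, had 6074 and 5664 counts, a log2 ratio of -0.12 (interval -0.17 to -0.07). Per length, H2-Aa stood at 1.67 times H2-Ab1 in control and at 1.26 times in erythrodiol, and at 3.57 and 2.71 times H2-Eb1. Both are short genes, of 1084 and 1193 bases, and relative to genes of like length the log2 ratio of H2-Aa was -0.45 and that of H2-Ab1 was -0.05. H2-Eb2 had 50 and 51 counts (0.01, interval -0.58 to 0.60), too few to show a difference.

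H2-DM takes the invariant chain fragment out of the class II groove, and H2-O holds H2-DM back. H2-DMb1 had 1546 and 1313 counts, a log2 ratio of -0.26 (interval -0.36 to -0.15), H2-DMa had 1180.3 and 1198 (0.00, interval -0.12 to 0.12) and H2-DMb2 had 101.9 and 122.6 (0.25, interval -0.14 to 0.64). The 3 chains together gave -0.12 (interval -0.20 to -0.05). H2-DMb1 and H2-DMb2 share sequence, and the sum of the pair was 1648 and 1436 counts, a log2 ratio of -0.22 (interval -0.32 to -0.12). H2-Oa had 91 and 76 counts (-0.28) and H2-Ob had 207 and 232 (0.14), and their sum lay at 0.03 with an interval of -0.21 to 0.26.

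The partners of class II differed less than H2-Aa. Cd74, the invariant chain, had 24590 and 23854 counts, a log2 ratio of -0.06 (interval -0.09 to -0.04), and Ciita, the transactivator of class II genes, had 687 and 694 (-0.01, interval -0.16 to 0.15). Per length, Cd74 stood at 0.923 times the sum of H2-Aa and H2-Ab1 in control and at 1.13 times in erythrodiol. H2-Ke6, which belongs to neither class, had 5963 and 6200 counts (0.04).

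Set against each other, the summed log2 ratio of class I exceeded that of class II by 0.18 (counting interval 0.16 to 0.20). A factor common to all genes of a group cancels in this difference, but a correction by gene length does not, and relative to genes of like length it was 0.092. It rested on H2-Aa: without that gene it was 0.02, and without the gene of most counts in each class, H2-Q10 and H2-Aa, it turned to -0.05. Taken as the difference between the medians of the members it was 0.08. Class I counts were 13.7 times class II counts in control and 15.6 times in erythrodiol.

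Genes of class II peptide processing lay below 0 in 6 of 7 cases, with a median of -0.22 and none at least 1.5-fold lower. Relative to the median gene 2 were, Ctss (-0.73) and Cd63 (-0.70). Cd63 is short, at 918 bases, and neither gene was set against genes of like length. Of all genes with at least 100 counts, 28.8% lay below 0, and 6.16% were at least 1.5-fold lower relative to the median gene. Ctsb and Ctsd, lysosomal cathepsins and the most abundant of the 7, had log2 ratios of 0.05 and -0.27, and Ctss, the cathepsin that trims the invariant chain in antigen presenting cells, had 15046 and 10307 counts (-0.57). The list of costimulatory and dendritic display genes had 5 of 5 below 0, with a median of -0.36, and 2 of them were at least 1.5-fold lower relative to the median gene, Cd274 (-0.65) and Cd83 (-0.59). Its most abundant members were Cd86 (1437 and 1135 counts, -0.36) and Cd274, which encodes PD-L1 (958 and 694, -0.49). Of 16 regulators of class I and II genes measured, 10 lay above 0 and 6 below, none past 1.5-fold, and the median was 0.16, as it was for all genes. Relative to the median gene 1 was at least 1.5-fold lower, the class II ligase March1 (1025 and 724 counts, -0.68). March8, a ligase that removes class II from the surface, had 14284 and 14523 counts (0.00).

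Markers of the cell types that make class II were read in the same sums. Among all genes with at least 100 counts, 28.8% lay below 0, 3.14% were at least 1.5-fold lower and 2.55% at least 1.5-fold higher. All 10 Kupffer cell markers lay below 0, with a median of -0.59, and their summed level was 1359 CPM in control and 899 in erythrodiol. Of them 6 were at least 1.5-fold lower, namely Marco (6374 and 3086 counts, -1.07), Adgre1 (-0.75), Cd5l (-0.70), Clec4f (-0.65), C1qa (-0.60) and Vsig4 (-0.59). Of 8 monocyte and macrophage markers 6 lay below 0, and Lyz2 (-0.62) and Ly6c2 (-0.61) were at least 1.5-fold lower, with a summed level of 420 and 307 CPM, while Gpnmb, the second in counts, had 7013 and 6059 (-0.23). The 8 dendritic cell markers summed to 25.0 and 24.9 CPM, with a median of -0.02 and none past 1.5-fold, the most abundant being Itgax (1036 and 991 counts) and Zbtb46 (750 and 815). The 7 B cell markers measured summed to 14.6 and 14.7 CPM with a median of 0.03, and 1 of them, Pax5 (73 and 114 counts, 0.62), was at least 1.5-fold higher. Relative to the median gene Pax5 lay at 0.46, within 1.5-fold, and Ms4a1 (127 and 91 counts) at -0.66, at least 1.5-fold lower. Counted in that way 8 Kupffer cell, 3 monocyte and macrophage and 0 dendritic cell markers were lower, beside 6.16% of all genes. The B cell markers of most counts were Cd22 (583 and 621) and Bank1 (400 and 363). No marker in these 4 lists was at 0 in either group. The part of any of these cell types in the H2-Aa and class II values was not tested.

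Other cell types of the liver were listed too. The 6 hepatocyte markers, headed by Alb and Serpina1c, had a median log2 ratio of 0.16 and were at 101055 and 99983 CPM, so the sums are those of liver. The 6 sinusoidal endothelial markers, headed by Stab2 and Clec4g, had a median of 0.01, and the 6 stellate cell markers, headed by Dcn and Reln, one of 0.02. The 5 bile duct markers all lay below 0 with a median of -0.55, where 28.8% of all genes lay below 0. Of them Krt19 (280 and 153 counts) and Spp1 (12503 and 8363) were at least 1.5-fold lower, beside 3.14% of all genes. Sox9 had 999 and 953 counts (-0.09, interval -0.22 to 0.04). The 9 T and NK cell markers had a median of -0.10 and summed to 7.52 and 7.13 CPM, those of most counts being Nkg7 (116 and 127) and Cd4 (205 and 230). Whether any of these moved the class I values was not tested.

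**Figure D3:**
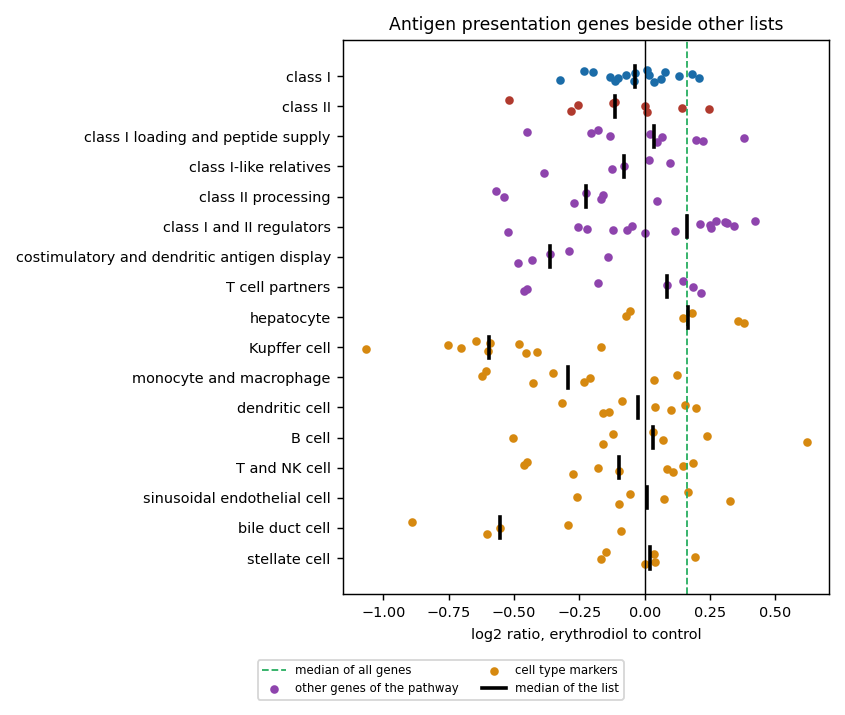
The log2 ratio of erythrodiol to control for the genes of class I and class II, of 6 lists of related genes and of 9 lists of cell type markers; each dot is 1 gene with at least 100 counts, black bars are list medians and the dashed line is the median of all genes (0.16). The Kupffer cell and bile duct cell medians, -0.59 and -0.55, are the lowest, and the class I and class II medians, -0.04 and -0.11, lie between them and the median of all genes.

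The counts of the class I family were estimates to a larger degree than those of other genes. An expected count that is not whole was taken as a sign that reads were divided between genes. This held in at least one group for 19 of 38 members (50%) and for 19.2% of all genes, and it held for 15 of 22 class I genes against 3 of 9 class II genes. H2-Aa, H2-Ab1, H2-Eb1, B2m, Cd74, Tap1 and Tap2 had whole counts. In the spliced GENCODE M21 transcripts, 35 members were found, and windows of 100 bases were compared between genes for exact matches. The authors' own reference was not searched. It also held their new coding transcripts, and for H2-K1 that transcript lay outside the numbered chromosomes. Of the 17 with counts that were not whole, 15 shared windows with another gene, with a median of 5.37% of their windows over the 17. Of the 18 with whole counts 1 shared any, namely H2-Ke6, with 42.8% of its windows also in Gm20427.

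The largest shared stretches among class I joined H2-Q7 to H2-Q6 (166 windows) and H2-T22 to H2-T10 (163), and in class II H2-DMb1 shared 179 windows with H2-DMb2. H2-Q10 shared 1.93% of its windows and H2-D1 shared 4.09%, while H2-K1 shared none although its count was not whole. Without the genes of non-whole counts, the class I sum kept only 7 of its 22 genes and its log2 ratio was 0.01 in place of -0.10, since H2-K1, H2-D1 and H2-Q10 were all removed, while class II stood at -0.29. The authors' assembly added 10 new coding transcripts to 8 members, and 8 of the 10 were placed on sequences outside the numbered chromosomes. Of the 2 on chromosome 17, that of H2-T22 spanned 83040 bases, from 36038407 to 36121446, and ran over H2-Bl, H2-T-ps and H2-T10.

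**Figure D4:**
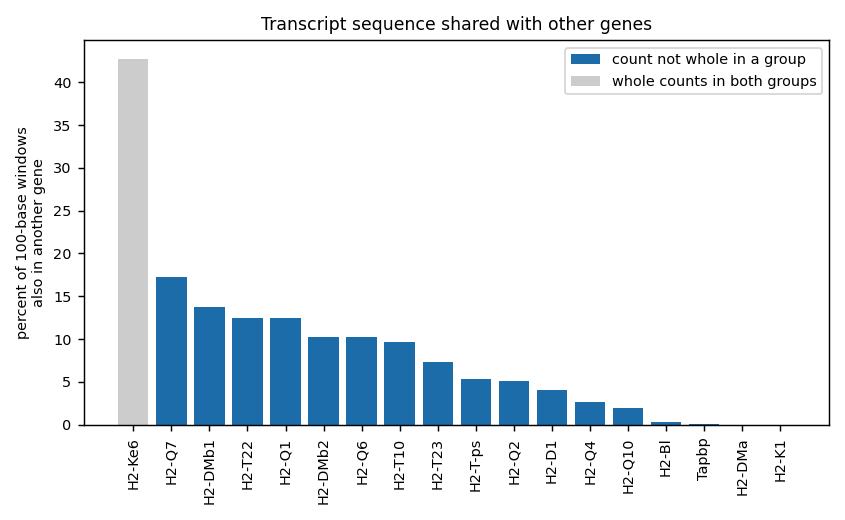
Percent of the 100-base windows of a member's spliced transcripts that are also found in a transcript of another gene, for members that share any window or whose expected count was not whole; blue bars are members with counts that were not whole and the grey bar is one with whole counts. H2-Q7 reaches 17.2% and H2-DMb1 13.7%, while H2-K1 and H2-DMa stand at 0 and H2-Ke6 at 42.8%.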

How the data were processed

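Liver polyA RNA of 14 libraries was grouped by the labels. The authors aligned clean reads to transcripts with Bowtie2 and deposited RSEM expected counts per gene as 1 sum for each group, unnormalized, and, per library, counts of clean reads and the percent mapped to genes and to the genome (HISAT). The deposited fold changes, p-values and q-values of the authors' comparison were not used. New coding transcripts came from the authors' StringTie assembly. Tool versions were not given in the sources used here.

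Group sums were divided by column totals (control 122889032, erythrodiol 124686047) and compared as log2 ratios with exact 95% binomial intervals, for which expected counts were rounded. A gene was called at 1.5-fold if the sum over both groups reached 100 counts. A count within 0.005 of a whole number was taken as whole. The design foresaw edgeR tests only for counts per library, so none was run. Named genes are all members with 100 counts and, of each list, the 2 of most counts and those past 1.5-fold. A gene that this rule names is not reported here. Further genes were picked once values were known. The members and lists were chosen with earlier results of these data known. Alternatives were other scalings (median gene, 20 classes of length, TMM of edgeR 4.0.16 in R 4.3.3), folds, minima and subsets of members. For the difference of the classes, the leaving out of H2-Aa and the classes of length were added after seeing the data. The computation of the ratios was checked on sums simulated with counting error only, so that check does not cover spread between libraries or divided reads. Coordinates are those of GRCm38. Intervals used scipy 1.17.1 under Python 3.11.15.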

Additional observations from a re-analysis of the deposited data

Results flagged for a closer look

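Control replicate 3 stood apart from the other control libraries in 2 measures. It had 64.33% of its clean reads mapped to genes, where the control median was 75.3%, and 76.66% mapped to the genome, where the control median was 94.41%. The gap to the nearest control library was 0.588 of the group's range for the first measure and 0.852 for the second, above the 95% limit of Dixon's test for 7 samples. Chance flags about 1 in 20 groups. This library is part of the control sum of every gene, and its share in the values of the antigen presentation genes could not be read from the sums. Control replicates 1, 3 and 4 had 51.36%, 52.68% and 54.17% of reads mapped to a unique gene, below the erythrodiol range of 57.85% to 65.32%. To a unique place they had 55.27%, 41.62% and 56.16%, where the erythrodiol libraries had 64.03% to 68%. The other control libraries had 60.85% to 67.12% and 62.64% to 69.06%. The effect on counts divided between genes was not tested.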

How the results depend on the processing

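No paired analysis was possible because only 1 sum per gene and group was given, and for the same reason no library could be left out. The class I log2 ratio (-0.10) was -0.26 with scaling by the median gene, -0.15 against genes of like length, -0.25 with TMM, -0.17 without H2-Q10, 0.0069 without genes of non-whole counts, -0.089 per kilobase and -0.036 as the median of the members. The class II ratio (-0.28) was in the same order -0.44, -0.24, -0.43, -0.12 (without H2-Aa), -0.29, -0.30 and -0.11. The difference of the classes (0.18) was -0.054 without the gene of most counts in each class, 0.30 without genes of non-whole counts, 0.21 per kilobase, 0.079 between medians, 0.018 without H2-Aa and 0.092 against genes of like length, the last 2 added after seeing the data. Without genes of non-whole counts class I rested mainly on 2 scarce genes, H2-T24 (602 and 705 counts) and H2-M3 (446 and 362). The moves under scaling by the median gene and by TMM equal the shift of all genes, 0.16 by either. Those against genes of like length follow from the shift of each class of length. Those under removal follow from the genes removed. The cause of the others was not tested. No member was higher or lower at 2-fold or with a minimum of 10 counts. With no minimum and a pseudocount of 1, 1 was higher (H2-M10) and 1 lower (H2-T3), from 1 count each, and 1 was lower with scaling by the median (H2-Aa). Relative to genes of like length none was at least 1.5-fold higher or lower. Depth limits the scarce genes, such as H2-M2, H2-Q2, H2-Oa, H2-Ob, H2-DMb2 and H2-Eb2, whose intervals cross 0.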

Other observations

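The class I-like relatives, which share the fold but not the peptide role of class I molecules, were not part of the comparison above. Of 5 measured, 3 lay below 0 and 2 above, with a median log2 ratio of -0.08 and none past 1.5-fold. Azgp1, a secreted lipid-binding relative, had 202232 and 157153 counts in control and erythrodiol, respectively, a log2 ratio of -0.38, beside 171833 and 175631 counts for H2-Q10. Cd1d1, which presents lipids to NKT cells, had 19380 and 19902 counts (0.02). Fcgrt, the neonatal Fc receptor, had 18228 and 17520 (-0.08).

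The T cell molecules that meet MHC were scarce, with 7 genes at 5.78 and 5.61 CPM in all and a median of 0.09. Cd4, the class II coreceptor, had 205 and 230 counts (0.15, interval -0.13 to 0.42) and Cd3g, a chain of the T cell receptor complex, had 129 and 95 (-0.46, interval -0.86 to -0.07). Relative to the median gene 2 of the 7 were at least 1.5-fold lower, Cd3g (-0.62) and Cd3d (-0.61), beside 6.16% of all genes. The T cell genes were not set against genes of like length. Cd8a, of the class I coreceptor, had 107 and 96 counts (-0.18, interval -0.59 to 0.23).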
